A study of Danio rerio with 3 samples.

Results

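H3K27ac intervals that lie close to H3K27me3 without overlapping it were examined in the posterior trunk of wild-type zebrafish embryos at 16 hours post fertilisation. The rule took the bp shared by H3K27ac replicates 1 and 2. From these it kept intervals under 1000 bp, in stitched groups of at most 4 intervals (gaps of at most 12.5 kb), that overlapped no H3K27me3 region but had one within 5000 bp, edge to edge. It found 3052 such bordering intervals among 27647 H3K27ac intervals in all, in 2427 stitched groups. The width and group limits alone left 23189 intervals. Of these, 13.2% were bordering, 1759 overlapped H3K27me3 and 18378 were further than 5000 bp from it. The members were thus chosen by the called positions of both marks, so counts and levels are given as descriptions, with no test. The label matched its rule with 1 exception: the full region of a replicate reaches past the shared bp, and in 246 members (8.06%, exact 95% interval 7.12 to 9.08%) a full region touched H3K27me3. This was the case for 56 members in replicate 1 and 194 in replicate 2.

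In CUT&RUN a nuclease is brought to a histone mark by an antibody, and the DNA it cuts free is sequenced. Here 2 libraries were made with an H3K27ac antibody (Abcam) and 1 with an H3K27me3 antibody (Merck Millipore). All embryos were wild type, and the labels name no treatment. Labels do not say how many embryos were pooled or whether different clutches gave the H3K27ac replicates, so their spread may be technical, and the posterior trunk is a mixture of cell types. Marks at neighbouring places may therefore come from different cells, fewer cells with a mark and less mark per cell cannot be told apart, and peak lists hold no markers to check the tissue.

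Lysine 27 of histone H3 carries either an acetyl group or methyl groups, so a single histone tail cannot hold both marks. H3K27ac is placed by the p300 and CBP acetyltransferases at active enhancers and promoters. H3K27me3 is placed by Polycomb repressive complex 2, whose reader subunit EED binds the mark and so helps it spread along a domain. Borders between these states are known from developmental gene loci, where a gene can be active in some cells of a tissue and repressed in others. No genome or gene annotation of the files' build, danRer11, was used here, so intervals are named by position and no sequence is printed.

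The lists held 45534 and 60427 regions in H3K27ac replicates 1 and 2 and 17121 in H3K27me3. Read totals were not part of the lists. The peak caller's genome-wide background, worked out from each region's fold and p-value, was 0.806 and 1.10 tags for the H3K27ac libraries (replicates 1 and 2) and 0.370 for H3K27me3. On this measure, which assumes 1 genome size for every list, H3K27me3 was sequenced to 33.6% of the depth of H3K27ac replicate 2, so weak H3K27me3 may be missed. Levels below are 10-kb tag densities, meaning tags in the 10-kb window around a summit over that background. A density cannot go below 1, exists for called regions alone, and has no common scale across the 2 antibodies. All H3K27me3 values come from 1 library.

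Bordering positions were more common than circular shifts of the H3K27me3 regions along each chromosome gave. The 3052 bordering intervals compare with a median of 2109 after 1000 shifts (central 95% range 2001 to 2219), a ratio of 1.45. The ratio for overlap was larger, at 6.54. With shifts of only 50 to 500 kb, which roughly keep the regional density of both marks, the ratio for bordering was 1.29 (range 1.23 to 1.35). It was 1.22 with regions of H3K27ac replicate 1 alone and 1.05 (range 1.01 to 1.09) with those of replicate 2 alone, so the excess was small in the deeper list taken by itself. Without the limit on group size these were 1.32 and 1.22.

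The gap to the nearest H3K27me3 region had a median of 2038 bp (exact 95% interval 1953 to 2111), against 2281 bp after shifts. Summits of the marks lay a median of 2488 bp apart for H3K27ac replicate 1 and 2500.5 bp for replicate 2. Gaps were not evenly spread. The first 500 bp held 460 intervals, against a shift median of 251, a ratio of 1.83. The ratio was 1.46 from 500 to 1000 bp and 1.44 from 1000 to 1500 bp. It was higher again at 1.70 from 1500 to 2000 bp, 1.69 from 2000 to 2500 bp and 1.62 from 2500 to 3000 bp. From 3000 to 3500 bp it was 1.28 and from 3500 to 4000 bp 1.22. The last bins, from 4000 to 4500 and 4500 to 5000 bp, were at 0.973 and 1.04, within the range of shifts, and from 5000 to 7500 bp the ratio was 1.09. The excess over shifts lay mostly within 4000 bp, with a high first bin and a broad second rise around 2000 bp, and the value from 5000 to 7500 bp was only just above its range (1.01 to 1.18).

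**Figure D1:**
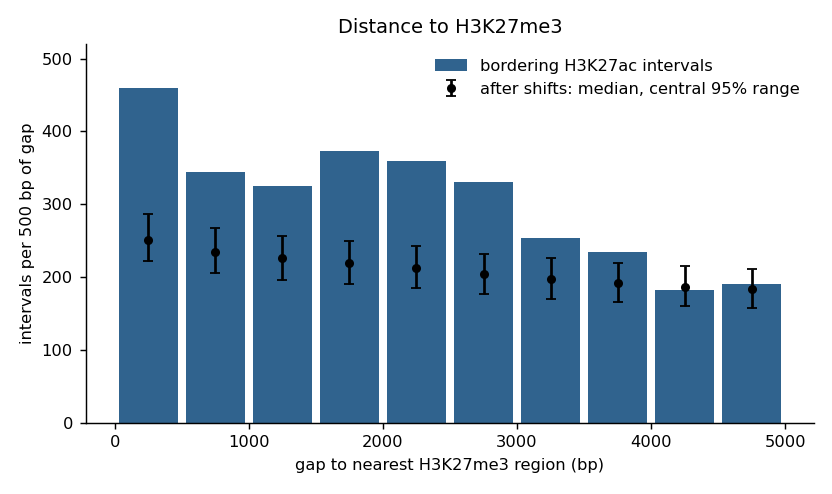
Number of bordering H3K27ac intervals (bars) by gap to the nearest H3K27me3 region in bp, with the median and central 95% range of 1000 circular shifts of H3K27me3 (points and error bars). Bars are above the range from 0 to 4000 bp, with 460 intervals in the first 500 bp and 373 from 1500 to 2000 bp, and within the range from 4000 to 5000 bp.

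These parts of the profile had different H3K27me3 neighbours. The H3K27me3 regions were divided into 4 equal classes by their 10-kb tag density, with bounds at 2.38, 5.94 and 19.1, a division chosen after the profile was seen. Members with a neighbour in the lowest class numbered 879, in the next 966, in the third 779 and in the highest 428. Shift medians fell across the classes too, for example 209, 187, 157 and 82 from 1500 to 3000 bp. The bare counts therefore do not rank the classes. For the lowest class, the first 500 bp held 204 members against 71 after shifts, a ratio of 2.87 (range 2.32 to 3.71), and the ratio was 1.19 (range 1.04 to 1.39) from 1500 to 3000 bp. For the highest class the order was the opposite. Its first 500 bp held 35 members against 53 after shifts, a ratio of 0.660 (range 0.507 to 0.876), whereas 184 members lay 1500 to 3000 bp away against 82 after shifts, a ratio of 2.24 (range 1.804 to 2.83).

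The middle classes lay between these. In the lower of them the ratio was 2.24 in the first 500 bp and 1.67 from 1500 to 3000 bp. In the upper it was 1.18 in the first 500 bp and 2.02 from 1500 to 3000 bp. From 500 to 1500 bp as a single bin, the ratios were 1.37, 1.52, 1.46 and 1.49 from lowest to highest class. Each was above its range. In 500-bp bins the classes were not alike. Between 500 to 1000 bp and 1000 to 1500 bp the ratio fell from 1.62 to 1.13 in the lowest class. It fell from 1.625 to 1.42 in the next. It rose from 1.21 to 1.71 in the third class and from 1.31 to 1.66 in the highest. The 1.13 and the 1.21 were within the range of shifts. The excess was thus largest in the first 500 bp beside the sparsest H3K27me3. Beside the densest class it was missing only there among gaps up to 3000 bp, and was largest from 1500 to 3000 bp. Intervals of the same width and group limits that overlapped H3K27me3 ran the same way as the first bin: 660 overlapped a region of the lowest class against 51 after shifts, a ratio of 12.9, and 252 overlapped one of the highest class against 83, a ratio of 3.04. The lowest class, with densities up to 2.38 in 1 library, is near the floor. These overlap ratios were not recomputed for regions with a -log10 q of at least 5.

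**Figure D2:**
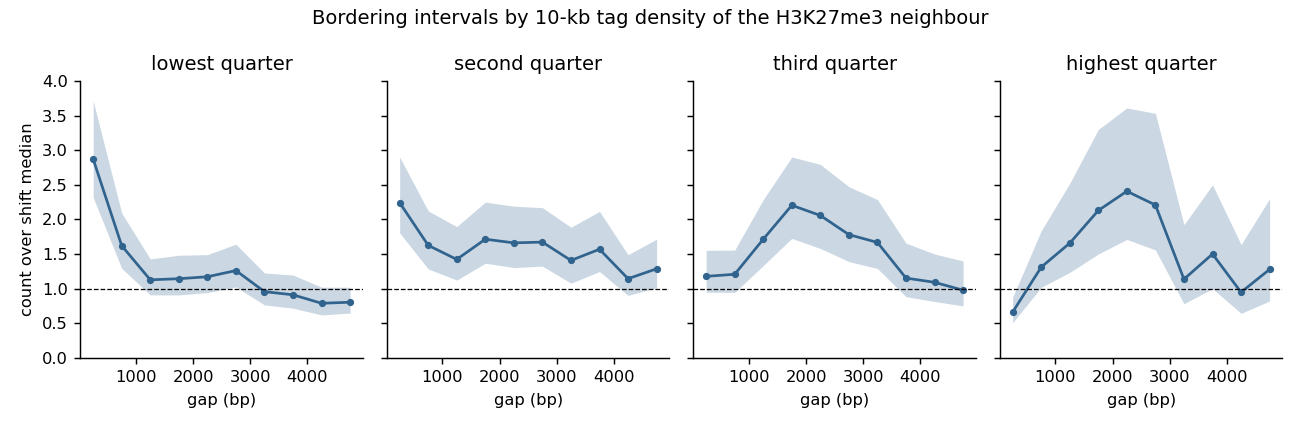
Ratio of bordering intervals to the shift median in 500-bp bins of gap, in 4 panels by 10-kb tag density of the nearest H3K27me3 region, lowest to highest. Lines join the ratios, bands divide the count by the bounds of the central 95% of shifts, and the dashed line marks 1. The lowest class peaks in the first bin at 2.87 and the highest class at 2.41 from 2000 to 2500 bp, after 0.660 in the first bin.

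For the denser H3K27me3 regions (the upper 2 classes together) the ratio was 0.939 under 500 bp and 2.10 from 1500 to 3000 bp. For the sparser regions (the lower 2) it was 2.57 and 1.42 at the same gaps. With replicate 1 alone the denser regions had 0.864 and 1.65 and the sparser 2.07 and 1.23, and with replicate 2 alone the denser had 0.772 and 1.35 and the sparser 1.86 and 1.07. Each list by itself therefore kept both orders. Regions of both marks with a -log10 q of at least 5 left 491 members, and sparser and denser were divided anew among these H3K27me3 regions. The members' neighbours then had a median density of 10.7, above the bound of 5.94 that divided the main list. Under 500 bp the ratio was 1.38 for sparser regions (range 0.971 to 2.2) and 0.737 for denser ones (range 0.5 to 1.27). Both were within the range of shifts, but the sparser regions there are not the same set as in the main division. The contrast depended on what ranked the H3K27me3 regions. Ranked by summit pileup it was kept, with 1.06 and 1.93 for the higher-ranked regions and 2.51 and 1.5 for the lower-ranked. Ranked by the authors' -log10 q, which sets a summit against its surroundings, it was absent from 1500 to 3000 bp, with 1.58 and 1.64 for the higher-ranked and 2.05 and 1.70 for the lower-ranked. Ranked by width it was likewise absent there, with 1.34 and 1.70 for the wider and 2.297 and 1.65 for the narrower. Under 500 bp both of these rankings gave an excess beside the higher-ranked regions too. Its range was 1.32 to 1.89 by -log10 q, which overlapped that of the lower-ranked (1.735 to 2.47), and 1.13 to 1.63 by width.

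The level of the neighbour followed the same shape along the gap. Its median density was 2.70 (exact 95% interval 2.38 to 3.03, 460 intervals) under 500 bp and 3.70 from 500 to 1000 bp. It was 5.24 from 1000 to 1500 bp, 5.78 (4.97 to 6.92, 373 intervals) from 1500 to 2000 bp and 5.62 from 2000 to 2500 bp. Further out it was 4.27 from 3500 to 4000 bp and 3.70 (3.13 to 4.65, 190 intervals) from 4500 to 5000 bp. Neighbours were also narrower close by, with a median width of 285.5 bp (265 to 326) under 500 bp and 384 bp (358 to 411) from 1500 to 2000 bp. Over all members the neighbour's median density was 4.22, against 3.97 after shifts (range 3.67 to 4.27), within the range of shifts. By gap it was not: under 500 bp the 2.70 compares with 4.92 after shifts (range 4.03 to 6.38), and from 1500 to 3000 bp it was 5.29, against 3.92 (range 3.46 to 4.43).

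H3K27ac itself was denser around bordering intervals than around intervals further away. The median density of members was 4.37 in replicate 1 and 4.45 in replicate 2, which is 4.41 ± 0.0601 (SD, n = 2). It was 3.68 ± 0.0117 (SD, n = 2) in intervals further than 5000 bp from H3K27me3 and 3.69 ± 0.0245 (SD, n = 2) in intervals that overlapped it. The difference from either set was larger than the spread between replicates. The 10-kb window also counts tags of nearby H3K27ac intervals, and members were more common in larger groups. They were 11.4% of eligible intervals standing alone and 16.0% of those in groups of 4. Neither these sets nor the shifts were matched for group size. After shifts the medians were 3.77 (range 3.62 to 3.95) in replicate 1 and 3.82 (range 3.67 to 3.97) in replicate 2. With single lists the members are other intervals, and the ratio to intervals further away was 1.402 in replicate 1 and 1.51 in replicate 2, against 1.20 with both.

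The summits themselves differed little. Median summit pileup was 17 tags in replicate 1 and 23 in replicate 2 for members, against 16 and 22 for intervals further away. The authors' fold, which divides summit by surroundings, was lower in members, at 3.86 and 3.84 in replicates 1 and 2 against 4.13 and 4.28. Their -log10 q was 4.59 and 6.06, against 4.80 and 6.86. Members were narrower too, with a median width of 320 bp (exact 95% interval 311 to 331), against 364 bp (360 to 368) further away and 369 bp (356 to 383) in overlapping intervals.

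Among the members' bins of gap, H3K27ac density was lowest under 500 bp. Under 500 bp it was 3.78 ± 0.0182 (SD, n = 2), and from 500 to 1000 bp it was 4.49 ± 0.154 (SD, n = 2). Between 1000 and 5000 bp the medians of the bins lay between 4.29 and 4.84. From 5000 to 10000 bp the density was 3.90 ± 0.0224 (SD, n = 2) and from 20000 to 50000 bp 3.802 ± 0.0443 (SD, n = 2). From 4500 to 5000 bp it was 4.43 ± 0.0337 (SD, n = 2). Exact 95% intervals of the medians from 4500 to 5000 bp (190 intervals) and 5000 to 10000 bp (1729 intervals) overlapped in both replicates. In replicate 1 they were 4.02 to 4.84 inside 5000 bp and 3.75 to 4.09 outside. Those from 4000 to 5000 bp (372 intervals) overlapped those outside in neither replicate. They were 4.12 to 4.64 in replicate 1 and 4.12 to 4.74 in replicate 2, against 3.76 to 4.03 outside in replicate 2. On either side of 500 bp the intervals of the medians overlapped in neither replicate, with 3.62 to 3.99 below and 4.07 to 4.84 above it in replicate 1. Since 5000 bp is also the half-width of the window, part of a member's window can lie over its H3K27me3 neighbour. Windows are centred on summits and gaps run from edges, so at the longest gaps they need not meet.

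**Figure D3:**
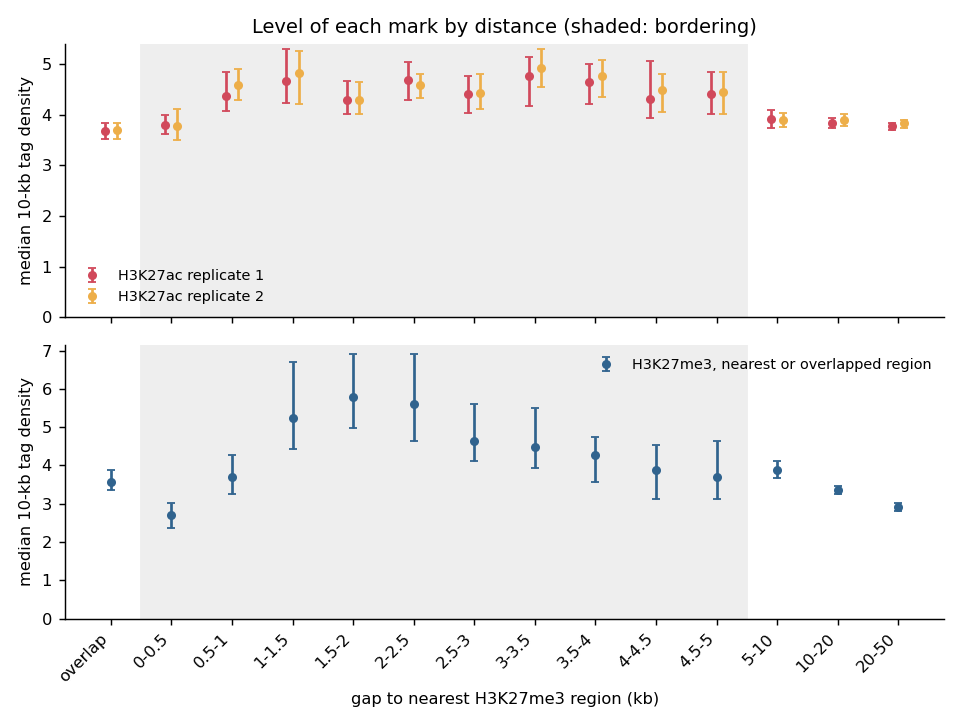
Median 10-kb tag density of H3K27ac (upper panel, replicates 1 and 2) and of the nearest or overlapped H3K27me3 region (lower panel) by gap in kb, for intervals under 1000 bp in groups of at most 4, with exact 95% intervals of the median as error bars. Shading marks bordering intervals, where H3K27ac is lowest under 0.5 kb (3.796 and 3.77) and H3K27me3 peaks at 5.78 from 1.5 to 2 kb.

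H3K27ac was also denser beside denser H3K27me3. In replicate 1 the median density of members was 4.07, 4.03, 4.66 and 5.36 from the lowest to the highest class of the neighbour. In replicate 2 it was 4.20, 4.22, 4.80 and 5.31. After shifts the 4 medians lay between 3.75 and 3.84 in both replicates. Every class exceeded its shift range in both replicates, except the class next to the lowest, which did so in replicate 2 alone. The ratio to shifts was 1.09 and 1.10 in replicates 1 and 2 for the lowest class and 1.42 and 1.39 for the highest. Member by member the relation was weak, with a Spearman rho of 0.145 in replicate 1 and 0.135 in replicate 2 across 3052 intervals, many of which share windows and neighbours. The replicates ranked the members alike (rho 0.953), and their log2 ratio, replicate 2 over replicate 1, was 0.02 at the median with an SD of 0.25.

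**Figure D4:**
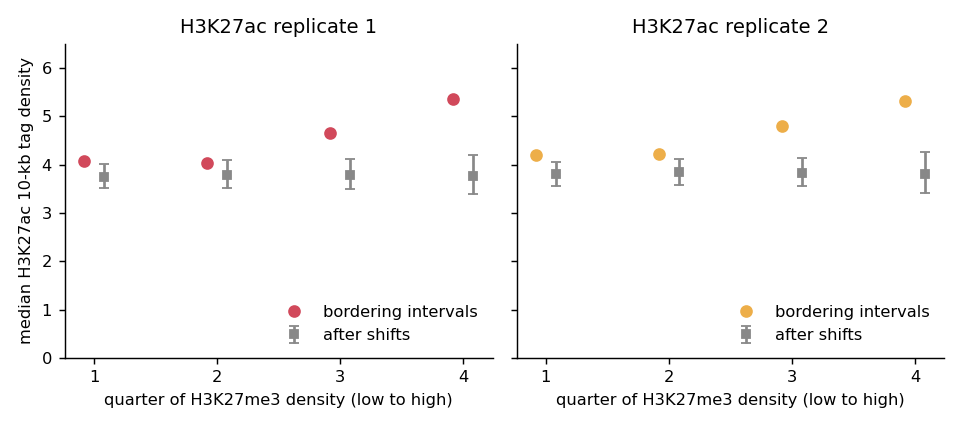
Median H3K27ac 10-kb tag density of bordering intervals (coloured points) by class of H3K27me3 density at the neighbour, low to high, in replicates 1 and 2, with the median and central 95% range after shifts (grey). The highest class has 5.36 and 5.31, and the values after shifts stay between 3.75 and 3.84.

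The geometry of the borders was mostly single-sided, as it was after shifts. H3K27me3 stood on both sides within 5000 bp in 276 members, or 9.04% (exact 95% interval 8.05 to 10.1%). This was within the range of shifts, which gave 8.28% (range 7.02 to 9.65%). These members had a denser H3K27me3 neighbour, with a median of 12.6 against 3.81 in members with H3K27me3 on 1 side. Their H3K27ac density was 4.999 and 4.72 in replicates 1 and 2 against 4.29 and 4.40. Neither contrast was set beside shifts. The 10-kb window of the neighbour can also count tags of the H3K27me3 region on the other side, and the part of this was not tested. H3K27me3 lay to the right in 49.9% of members (48.1 to 51.7%). The H3K27ac summit fell in the part facing H3K27me3 in 52.0% of members in replicate 1 (50.2 to 53.8%) and 51.6% in replicate 2 (49.8 to 53.4%). The H3K27me3 summit fell in the part facing H3K27ac in 49.7% (47.9 to 51.5%). Any lean of a summit towards the other mark was thus small.

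The next H3K27ac interval tended to lie on the same side as H3K27me3. It was nearer on that side in 1672 of 3052 members, or 54.8% (53.0 to 56.6%), against 49.8% after shifts (range 47.9 to 51.8%). For 393 members the H3K27me3 neighbour itself overlapped another H3K27ac interval, which lies on that side, and shifts do not keep this overlap. Its part in the difference was not tested. Another interval lay within 12.5 kb on the H3K27me3 side in 42.1% of members (40.3 to 43.8%) and on the other side in 33.2% (31.5 to 34.9%). These shares were not set beside shifts. In 17.5% of members the next H3K27ac interval on the H3K27me3 side began before the H3K27me3 neighbour. It could reach into that neighbour, so it need not lie wholly between them. Members were 11.4% of the 10074 eligible intervals standing alone and 16.0% of the 2098 in groups of 4, with 13.6% and 15.4% in groups of 2 and 3.

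The H3K27me3 side of the borders comprised 2607 distinct regions, or 15.2% of the list. Of these 403 were nearest to more than 1 member, 118 had members on both sides, and no region served more than 3. The neighbour itself overlapped some other H3K27ac interval for 393 members, or 12.9% (11.7 to 14.1%). Over all H3K27me3 regions this share was 12%. For the regions that were nearest after shifts it was 13.7%, counting overlap at their unshifted places. The members' share was near both. The neighbour belonged to a domain of at least 2 regions (gaps of at most 3000 bp) for 20.8% of members. Over all H3K27me3 regions the share was 40.8%, and after shifts 22.3% (range 20.4 to 24.2%), so the members' share was within the range of shifts.

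Bordering intervals occurred on every chromosome. Their share of eligible intervals was lowest on chromosome 22 at 9.69% (76 of 784) and chromosome 21 at 9.71% (77 of 793), and highest on chromosome 24 at 16.6% (114 of 685) and chromosome 13 at 16.3% (166 of 1021). The exact 95% intervals of chromosome 24 (13.9 to 19.7%) and chromosome 22 (7.71 to 11.98%) did not overlap, but these are the extremes of 25 chromosomes, and those of neighbours in the order did overlap. Chromosome 4, whose long arm is rich in repeats, had 11.4% (84 of 734), and unplaced scaffolds had 10.4% (29 of 280).

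Single borders with high levels of both marks are described next. They are extremes, since the H3K27me3 regions nearest to members had a median density of 4.27 and an upper quartile of 10.8. The member with the best lower rank over both marks, chr3:23661969-23662150, had an H3K27ac density of 15.6 in replicate 1 and 17.2 in replicate 2. Its H3K27me3 neighbour, 888 bp wide with a density of 138, ended 2095 bp to the left. Within 15 kb, 6 H3K27me3 regions with densities of 127 to 188 lay on that side. To the right stood 1 H3K27me3 region with a density of 5.19 and H3K27ac regions that reached 25.8 in replicate 1 and 26.0 in replicate 2. That H3K27me3 region overlapped H3K27ac of both replicates, and 1 H3K27ac region of replicate 1, with a density of 13.9, lay close to the member on its left. The dense H3K27me3 regions lay on the left and most H3K27ac regions on the right.

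A second border with H3K27me3 on 1 side was chr14:26711074-26711356, with H3K27ac densities of 13.0 and 13.5 in replicates 1 and 2. All 3 H3K27me3 regions within 15 kb, with densities of 75.2 to 77.5, lay to its left, the nearest 2776 bp away. Apart from 1 region of replicate 2 with a density of 6.96 further left, the other H3K27ac regions lay to its right. At chr1:46740403-46740749, with densities of 17.8 and 19.7, the only H3K27me3 region within 15 kb was 2788 bp wide, had a density of 106 and a -log10 q of 56.6, and began 3724 bp to the right. Here H3K27ac stood on the near side of it, and replicate 2 had 1 region beyond it, with a density of 7.47.

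Other members lay between H3K27me3 regions instead of having them on 1 side. At chr7:36041338-36041866, with H3K27ac densities of 13.2 and 12.2, H3K27me3 began 858 bp to the right with a density of 164 and ended 3150 bp to the left. Of the 6 H3K27me3 regions within 15 kb, 3 lay on each side, with densities of 108 to 164. Replicate 1 had no other H3K27ac region in this window and replicate 2 had 3. At chr2:21171786-21171981, with 11.1 and 11.3, the gaps were 167 bp on the right and 1423 bp on the left, among 8 H3K27me3 regions with densities of 140 to 227. Both members lay in a space between called H3K27me3 regions. At the chromosome 2 locus a wider space between such regions held no H3K27ac. There, another H3K27ac region of each replicate overlapped the H3K27me3 region next to the member on the left. Calls set a summit against its surroundings, so a space between calls, here or beside other dense H3K27me3, need not lack the mark.

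**Figure D5:**
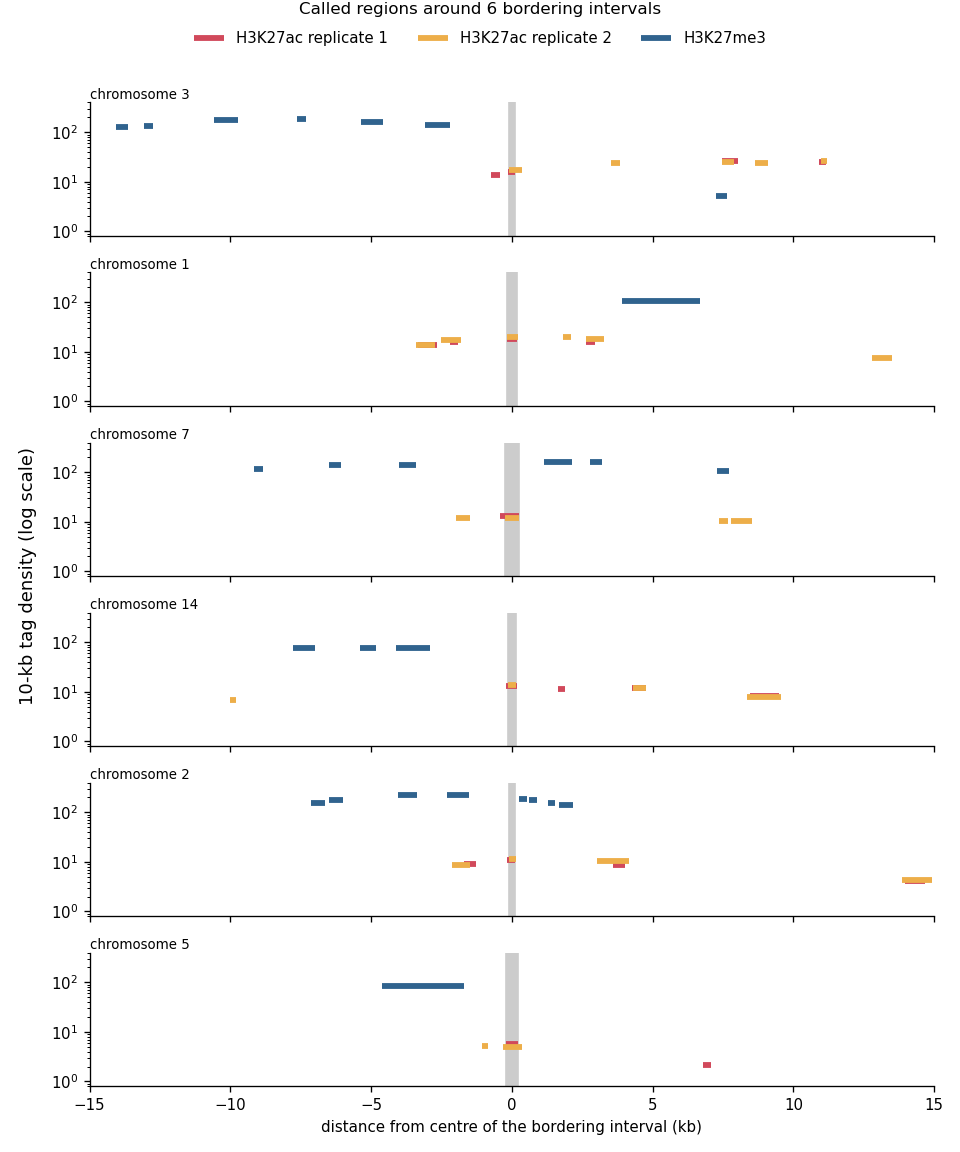
Called regions of H3K27ac replicates 1 and 2 and of H3K27me3 within 15 kb of the centre of 6 bordering intervals (grey), with 10-kb tag density on a log axis, which has no common scale across the 2 antibodies. On chromosomes 3 and 14 dense H3K27me3 lies left of the member, on chromosome 1 right of it and on chromosome 5 left of it as 1 wide region, and on chromosomes 7 and 2 it lies on both sides.

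The members with the most H3K27ac were chr23:36078256-36078532 at 26.0 ± 2.19 (SD, n = 2) and chr3:23673029-23673230 at 25.9 ± 0.210 (SD, n = 2). Next came chr19:19744366-19744560 at 23.3 ± 1.46 (SD, n = 2). The first 2 differed by less than the spread between replicates, and the third was lower by more than its own SD and theirs. The chromosome 1 locus followed at 18.8 ± 1.36 (SD, n = 2), lower again by more than that spread. The rest of the first 8 loci were chr9:37202939-37203142 at 18.5, chr16:19415219-19415398 at 18.0, chr19:15443242-15443458 at 17.9 and chr17:23965128-23965790 at 17.6, which, with the chromosome 1 locus, differed by less than the largest of their SDs, 1.77. Replicate 2 was the higher at 7 of these 8 loci, and over all members at 1619 of 3052.

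Their H3K27me3 neighbours ran from dense to nearly at background. The neighbour had a density of 55.2 at 2939 bp on chromosome 23, 106 at 3724 bp on chromosome 1 and 31.8 at 2681 bp for chr19:19744366-19744560. It was 5.19 at 3314 bp for chr3:23673029-23673230, 5.94 at 3746 bp on chromosome 16 and 4.97 at 1989 bp for chr19:15443242-15443458. It was 1.35 at 785 bp on chromosome 9 and 1.51 at 265 bp on chromosome 17. Those last neighbours rested on 25 and 28 tags in their windows, with summit pileups of 5 and 4. Among these 8, each neighbour with a density over 10 was at least 2681 bp away, and both gaps under 1000 bp had a neighbour with a density under 2. The 8 were picked for H3K27ac, and over all members gap and neighbour density were only weakly related (Spearman rho 0.066).

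The densest H3K27me3 beside any member was 277 (5130 tags), 2121 bp left of chr19:19723476-19723672, where H3K27ac had 4.22 in both replicates. The next were 243 beside chr19:41471877-41472254 with H3K27ac of 3.804 ± 0.549 and 230 beside chr7:35709928-35710315 with 9.40 ± 0.869 (SD, n = 2 each). Then came 217 beside chr23:36052658-36052857 with 9.32 ± 1.00 and 210 beside chr3:43345265-43345688 with 3.10 ± 0.498 (SD, n = 2 each). The last of the 8 were 204 beside chr23:20870119-20870609 with 6.17 ± 0.416, 183 beside the chromosome 2 member above, and 170 beside chr22:18260142-18260341 with 1.65 ± 0.0849 (SD, n = 2 each). H3K27ac at these loci ranged from below the median of all members to well above it. Of the 8, 6 had H3K27me3 on both sides within 5000 bp, and 7 of the 8 gaps were between 1220 and 4531 bp.

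The closest members touched H3K27me3 end to end. At chr2:33276481-33276542 only 62 bp were shared by the H3K27ac replicates, with densities of 3.03 and 4.12, and an H3K27me3 region with a density of 84.7 ended at the base before it. At chr9:16520988-16521362, with 6.05 and 6.80, an H3K27me3 region with a density of 5.62 began at the base after it. These were the only 2 gaps of 0 bp, and chr19:2564283-2564483, with 1.49 and 1.45, followed at 3 bp. In all, 59 members were under 50 bp wide. The widest H3K27me3 neighbours were 2919 bp long beside chr5:67662006-67662449, where H3K27ac had 5.73 and 5.02, and 2860 bp beside chr24:4450138-4450352, with 3.85 and 5.91. The third was the chromosome 1 region of 2788 bp described above.

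The intervals nearest to the limits are given as a description. Just inside 5000 bp, at gaps of 4999, 4997 and 4994 bp, the members had H3K27ac densities of 6.43, 4.93 and 7.103 (means of 2 replicates) and neighbours with 9.08, 2.49 and 3.13. Just outside, at 5004, 5004 and 5015 bp, the densities were 7.09, 7.20 and 2.34 and the neighbours had 5.08, 6.86 and 3.08. The widest member had 12.7, and the next, of 997 and 995 bp, had 3.801 and 10.1. The narrowest intervals left out for their width, of 1005, 1006 and 1013 bp, had 3.06, 6.82 and 7.96, and 67 wider intervals were otherwise bordering.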

How the data were processed

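The authors deposited 1 peak list per library, so replicates were not pooled. Per the submitters' processing notes, MACS2 2.2.7.1, Bowtie2 2.4.5, Picard 3.0.0, cutadapt 4.1, bedtools 2.30.0, SAMtools 1.16.1 and the build danRer11 were used. What each tool did, and its settings, is not given in the sources used here. Control libraries were not used here. The deposited lists give a fold (a ratio of summit pileup to local background), p-values and q-values as -log10, and a score, the -log10 q times 10. Such values were compared within 1 list.

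Touching lines were merged into regions, the mitochondrial genome was dropped, and a region kept its highest values. Pileup and background were solved from fold and p as MACS2 computes them, with an error of at most 0.001 on the -log10 scale; 355 H3K27me3 lines had several solutions and the closest was taken. A 200-bp tag adds 0.02 to the background of a 10-kb window, a reading taken from the values and not from the labels. Overlap means at least 1 bp. H3K27me3 regions were shifted circularly within each chromosome 1000 times with a fixed seed. Shares have Clopper-Pearson intervals and medians exact order-statistic intervals at 95%, which cover counting error only, since neighbouring intervals are not independent. The inversion was checked by a round trip on values it had itself recovered, which cannot test the reading of tags and window. The shifts were tested on simulated data. Replicates share no pairing with H3K27me3, and no test across libraries was run.

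Named intervals are the 8 with most H3K27ac, the 8 with the densest H3K27me3 neighbour, the 5 with the best lower rank over both densities, the 3 closest, the 3 with the widest neighbour and 3 on each side of the limits, at least 200 kb apart within each of these. The members and rules were chosen with earlier results of these data known. Alternatives changed the q minimum, distance, group and width limits, replicates, chromosomes and shifts. Software comprised matplotlib 3.10.9, scipy 1.17.1, pandas 2.3.3, numpy 2.4.6 and Python 3.11.15.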

Additional observations from a re-analysis of the deposited data

How the results depend on the processing

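No paired analysis was possible because H3K27me3 and H3K27ac share only replicate number 1. Of 107 values recomputed under an alternative, 54 stayed within the limit set for them (the spread or interval of the value, or 1.5 times for a count) and 53 did not, and the cause was not tested. The ratios, the division by H3K27me3 density and the recounts of those ratios without a group limit were added after seeing the data. Removing the group limit was planned for the bordering count, the share within 1000 bp and the H3K27me3 level. No ratio of the bordering count to shifts fell below 1. The full-region share has no single-replicate value, since an interval is then the full region.

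Regions with a -log10 q of at least 5 left 491 bordering intervals, with a ratio to shifts of 1.34, a median gap of 2288 bp, 18.7% within 1000 bp, 4.28% with H3K27me3 on both sides and 5.30% with a touching full region. H3K27ac density was then 5.40, 1.14 times that further away. H3K27me3 density was 10.7, and at 1500 to 3000 bp it was 1.48 times that under 500 bp. Denser and sparser H3K27me3 were divided anew among these regions. Denser H3K27me3 had ratios of 0.737 under 500 bp and 1.8 at 1500 to 3000 bp, and sparser 1.38 and 1.48. Their ranges overlapped at both gaps.

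A limit of 2000 bp gave 1504 intervals, H3K27ac of 4.24, H3K27me3 of 3.94 and 2.26% on both sides within 2000 bp. A limit of 10000 bp gave 4781, 4.24 and 13.5% on both sides within 10000 bp. The distance for both sides changed with the limit, so these shares do not measure the same thing as the main one. Shifts of 50 to 500 kb gave 1.29, and 1.78 for denser H3K27me3 at 1500 to 3000 bp. Without a group limit the density ratio was 1.21.

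Classes by -log10 q gave 1.58 and 1.64 for higher-ranked and 2.05 and 1.70 for lower-ranked H3K27me3 at the short and long gaps. The ranges of higher-ranked and lower-ranked regions overlapped at both gaps. Classes by width gave 1.34 and 1.70 for wider regions at the short and long gaps, and 1.65 for narrower ones at the long gap.

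Leaving out either H3K27ac replicate gave H3K27ac of 3.03 to 3.55, H3K27me3 of 3.999 in both cases, a density ratio of 1.402 to 1.51 and a count ratio of 1.05 to 1.22. Denser H3K27me3 then had 0.772 to 0.864 and 1.35 to 1.65, and sparser 1.86 to 2.07 and 1.07 to 1.23. Without a group limit as well, leaving out replicate 1 gave a density ratio of 1.60, a count ratio of 1.22, 1.65 for denser at the long gap, and 1.86 and 1.22 for sparser. Leaving out replicate 2 gave 1.41, 1.32, 1.8 and, for sparser at the short gap, 2.09.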
